A study of Homo sapiens with 3 samples.

Results

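Genes for proteins that modify or organise chromatin were examined in a list of YBX1 peaks from the bladder carcinoma line T24. The 8 genes were KMT2A, KMT2C, KMT2D, KDM6A, ARID1A, EP300, CREBBP and STAG2, which are often mutated in bladder carcinoma. A peak was counted for a gene when it shared at least 1 base with the gene's span, from its start to its end on hg19. In all, 131 of the 17802 peaks in the list (0.736%) lay in these spans. They fell in 6 of the 8 genes, and KDM6A and STAG2, the pair on the X chromosome, had none.

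YBX1 is a cold-shock-domain protein that packs mRNA into ribonucleoprotein particles, binds RNA that carries 5-methylcytosine (m5C) and can stabilise it. RNA was captured with anti-Flag beads from T24 cells that overexpressed Flag-YBX1, trimmed with micrococcal nuclease on the beads and sequenced. The labels describe 3 groups of 1 sample each: the input lysate, the YBX1 capture and a bisulfite-treated YBX1 capture, all of cells with the Flag-YBX1 construct, where the source field of the bisulfite sample gives another line name while its characteristics give T24. The groups include no capture from cells without Flag-YBX1, and without replicates the spread between cultures is unknown. The values below are positions and widths in 1 list of peaks made by the authors. The list gives no read depth, peak height, strand or level of any gene, so the labelled cell type could not be checked against its markers.

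The genes belong to 4 kinds of machinery. KMT2A, KMT2C and KMT2D are large methyltransferases that act on lysine 4 of histone H3. KMT2A works mainly at promoters, and KMT2C and KMT2D mainly at enhancers. KDM6A, a demethylase of lysine 27 of histone H3, sits in the same complexes as KMT2C and KMT2D. EP300 and CREBBP are paralogous acetyltransferases that act as coactivators, ARID1A is a DNA-binding subunit of the BAF chromatin remodelling complex, and STAG2 is a subunit of the cohesin ring that holds chromatin loops and sister chromatids. The peak positions show where regions of the YBX1 list lie along these genes. They give no m5C value, and without a strand a peak cannot be assigned to the gene's own transcript.

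The upstream sequence is shown for 3 genes picked from the peak pattern, and no link between sequence and peaks was tested. The start peak of EP300 had the longest reach before the gene start, 919 bp, and KDM6A and STAG2 had no peak in their spans. Each is the 250 bases before the most upstream start that RefSeq lists for the gene on GRCh38.p14, 5′ to 3′ on the gene's strand. In EP300 the capitals mark the hairpin of the microRNA MIR1281, and in KDM6A and STAG2 they mark ATTGG, the reverse complement of CCAAT, which is the core of the Y box that gave YBX1 its name as a DNA-binding protein. The EP300 stretch is chr22:41092342-41092591, that of KDM6A is chrX:44872938-44873187 and that of STAG2 is chrX:123960310-123960559, all on the plus strand of GRCh38.p14. These positions are not on the scale of the hg19 peaks.
EP300: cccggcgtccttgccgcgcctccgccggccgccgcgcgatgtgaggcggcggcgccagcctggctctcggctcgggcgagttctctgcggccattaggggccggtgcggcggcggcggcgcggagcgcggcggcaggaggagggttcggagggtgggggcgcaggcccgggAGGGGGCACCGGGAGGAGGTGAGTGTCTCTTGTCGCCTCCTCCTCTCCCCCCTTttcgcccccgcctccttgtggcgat
KDM6A: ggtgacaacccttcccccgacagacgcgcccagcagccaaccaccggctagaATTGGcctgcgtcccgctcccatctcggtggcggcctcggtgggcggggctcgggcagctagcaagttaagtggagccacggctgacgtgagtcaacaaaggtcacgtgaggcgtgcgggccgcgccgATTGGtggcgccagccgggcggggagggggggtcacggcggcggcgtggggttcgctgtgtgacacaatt
STAG2: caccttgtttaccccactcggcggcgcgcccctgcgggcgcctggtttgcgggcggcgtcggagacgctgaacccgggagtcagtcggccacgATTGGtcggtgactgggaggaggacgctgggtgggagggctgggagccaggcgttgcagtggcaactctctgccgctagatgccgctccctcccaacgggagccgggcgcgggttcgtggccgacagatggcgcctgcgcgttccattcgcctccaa

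Peak number, peak width and the bases under peaks ordered the genes differently. KMT2C had the most peaks, 40, followed by CREBBP with 28, EP300 with 21, KMT2A with 17, ARID1A with 14 and KMT2D with 11. By bases under peaks KMT2D was highest with 26411, nearly level with KMT2C at 26280. CREBBP followed with 16907 bases and KMT2A with 16166, then EP300 with 12541 and ARID1A with 11615. The highest and lowest of these 6 genes were 3.64 times apart in number of peaks and 2.27 times apart in bases under peaks. The 131 peaks put 109.9 kb of the 8 spans under peaks.

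**Figure D1:**
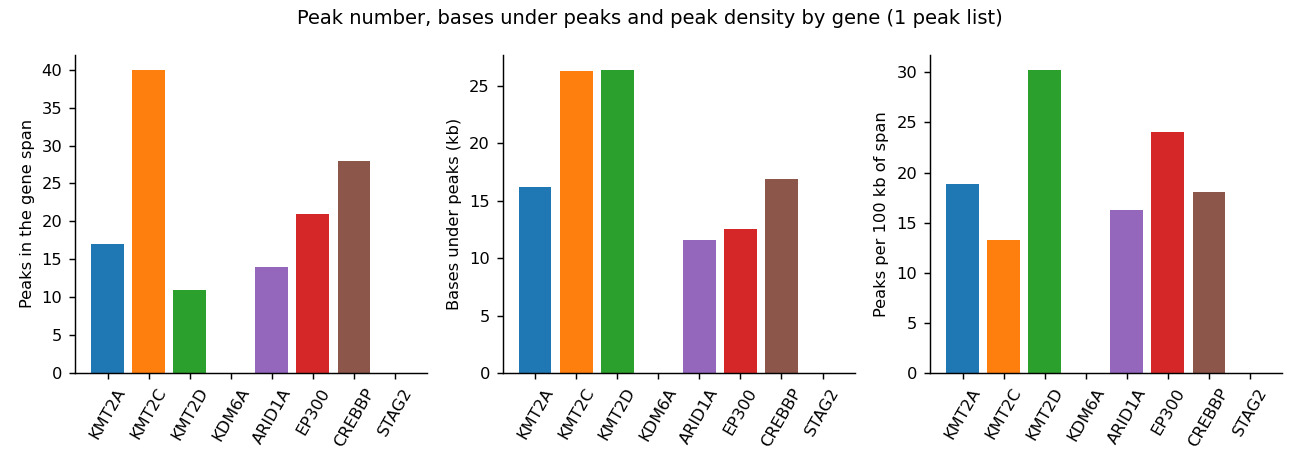
Bars give, for each of the 8 genes, the number of YBX1 peaks in the span, the bases under peaks in kb and the peaks per 100 kb of span, from 1 peak list without replicates. KMT2C is highest in peaks (40) and KMT2D in peaks per 100 kb (30.3), while their bases under peaks are close (26.3 and 26.4 kb), and KDM6A and STAG2 are at 0.

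KMT2C and KMT2D, the paralogous enhancer methyltransferases, had nearly equal numbers of bases under peaks in unlike shapes. KMT2C spans 301.1 kb of chromosome 7 (151832010 to 152133090, minus strand) and KMT2D 36.3 kb of chromosome 12 (49412758 to 49449107, minus strand), an 8.28-fold difference in length. The ratio of their bases under peaks was 0.995. In KMT2D peaks covered 72.7% of the span, and in KMT2C 8.73%. The median peak was 1304 bp wide in KMT2D and 495 bp in KMT2C. No peak of KMT2D was under 500 bp, against 22 of the 40 in KMT2C and 59.2% of all peaks in the list. Without peaks under 500 bp, KMT2C had 18 peaks and 16457 bases under them and KMT2D kept its 26411, so the near equality rests on the narrow peaks of KMT2C.

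KMT2D was covered by a few long blocks. From its start, the 5 widest blocks measured 5994, 2514, 5451, 4658 and 2972 bp. The first of them, from 49443309 to 49449303, was the widest peak in any of the 8 genes and the 25th widest in the list. The block of 5451 bp began only 104 bp after the one of 2514 bp ended. Narrower peaks of 872 and 1139 bp lay between the first and the second of these blocks, and peaks of 662, 528, 1304 and 513 bp between the last pair. Peaks of 1000 bp or more held 90.3% of the bases under peaks in this gene. Its longest stretch without a peak was 3.12 kb, between the peak at 49419887 to 49421191 and the peak at 49416253 to 49416766. All 11 peaks fell into 1 run of peaks no more than 5 kb apart. That run held 12 peaks, since it also took in a peak before the start of the span. The last peak, from 49412822 to 49415794, stopped 64 bp short of the end of the gene.

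KMT2C was dotted with narrow peaks, which thickened toward its end. The 4 peaks of 1000 bp or more were the one over the start (1128 bp) and 3 in the last 50 kb, of 2112, 2066 and 1789 bp. The widest, from 151877691 to 151879803, lay 253.3 to 255.4 kb from the start. These 4 held 24.8% of the bases under peaks, against 90.3% in the same class in KMT2D. The first 25% of the span held 1 peak, the next 5, the third 14 and the last 20. The largest stretch without a peak in any of the 6 genes with peaks, 76.6 kb, lay between the start peak and the peak at 152055480 to 152055931. The peaks formed 13 separate runs at a 5 kb distance, the largest with 10 peaks. The last peak, from 151841638 to 151842531, ended 9.63 kb before the gene's end, which made KMT2C the gene with the longest bare end. RefSeq lists 4 pseudogenes named after KMT2C, KMT2CP1 and KMT2CP3 on chromosome 1 and KMT2CP4 and KMT2CP5 on chromosome 2. Copies under other names were not searched for. The sources used here do not say how reads matching several copies were treated, so single KMT2C peaks are uncertain to that extent.

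KMT2A, on chromosome 11 (118307205 to 118397539, plus strand), lay between these patterns. Its 17 peaks covered 17.9% of a span of 90.3 kb, with a median width of 588 bp. A pair of peaks stood out in width. One of 2843 bp lay 35.1 to 37.9 kb from the start, and one of 4419 bp, from 118373030 to 118377449, lay 65.8 to 70.2 kb from it and was the 63rd widest in the list. Together with a peak of 1043 bp they held 51.4% of the gene's bases under peaks. After the widest peak came 12.8 kb without a peak, then 4 peaks of 427, 588, 697 and 552 bp near the end. The last of these, from 118394672 to 118395224, ended 2.32 kb before the end of the gene. The neighbour beyond that end in RefSeq is TTC36, and no peak lay within 20 kb outside the KMT2A span on either side.

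**Figure D2:**
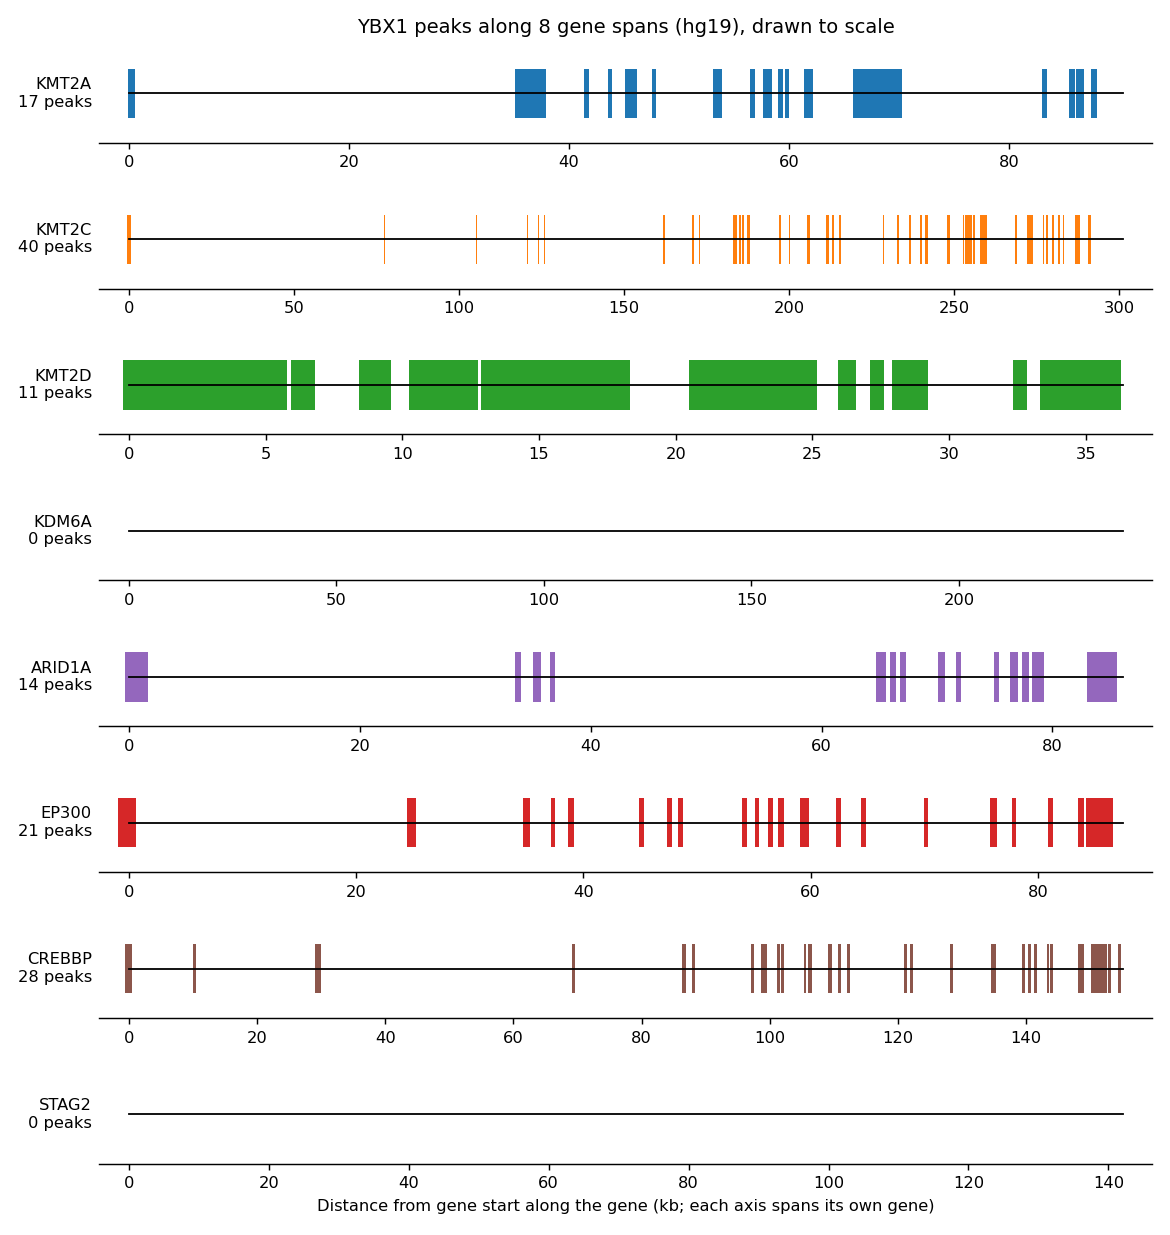
Each row is 1 gene drawn to scale from its start (left) to its end, with the distance from the start in kb on its own axis, and filled boxes are YBX1 peaks. KMT2D is covered by a few long boxes, KMT2C, EP300 and CREBBP by many narrow ones, and the rows of KDM6A and STAG2 hold no box.

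EP300 and CREBBP, the paralogous acetyltransferases, had similar peak patterns over spans of different length. EP300 on chromosome 22 (41488614 to 41576081, plus strand) had 21 peaks over 87.5 kb, and CREBBP on chromosome 16 (3775056 to 3930121, minus strand) had 28 over 155.1 kb. CREBBP thus had 1.33 times the peaks and 1.35 times the bases under peaks over 1.77 times the span. Median widths were 462 bp in EP300 and 469.5 bp in CREBBP, both close to the 470 bp of the whole list. Peaks under 500 bp made up 13 of 21 in EP300 and 17 of 28 in CREBBP, beside 59.2% of all peaks. No peak in the list was narrower than 400 bp, and 6.39% of all peaks had exactly that width. These medians thus lie close to the least width of the list.

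Each of these acetyltransferase genes had its widest peak near its end. In EP300 this was the last peak, 2426 bp from 41572824 to 41575250, which ended 831 bp before the end of the gene. In CREBBP it was the peak of 2501 bp from 3777517 to 3780018. After it came peaks of 402 and 452 bp, the last from 3775253 to 3775705, only 197 bp from the gene's end. The other peaks of 1000 bp or more were the start peaks of both genes (1531 bp in EP300, 1110 bp in CREBBP) and a peak of 1015 bp directly before the widest one in CREBBP. The pair differed in the first part of the gene. EP300 had no peak for 23.9 kb after its start peak. CREBBP had peaks of 400 and 926 bp at 10.1 and 29.0 kb from its start, and its longest stretch without a peak, 39.3 kb, came after them, between 3900164 to 3901090 and 3860441 to 3860904.

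ARID1A, on chromosome 1 (27022522 to 27108601, plus strand), had 14 peaks in 3 separate groups. The start peak was 1943 bp wide. After 31.8 kb without a peak came 3 peaks of 512, 684 and 414 bp, at 33.5 to 36.9 kb. A further 27.8 kb without a peak led to a group of 10 in the last 25% of the span, which held 9 peaks of 443 to 971 bp and, at its end, the widest of the gene. That peak, of 2594 bp from 27105484 to 27108078, ended 523 bp before the end of the gene. The third 25% of the ARID1A span held no peak midpoint, whereas KMT2A had 8, EP300 10, CREBBP 11 and KMT2C 14 there.

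Peaks in these genes lay closer together than in the list at large, and the share of wide peaks was above that of the list mainly through KMT2D. Of the 131 peaks, 21 were 1000 bp wide or more (16.0%, 95% Wilson interval 10.7 to 23.3%), and in the whole list the share was 9.80%. KMT2D alone gave 7 of the 21. Without it, a split chosen after the values were seen, the share was 14 of 120 (11.7%, 7.08 to 18.6%), beside 9.80% in the list. The other 5 genes gave 2 to 4 each, with shares from 9.52% in EP300 to 17.6% in KMT2A. The median width was 507 bp (quartiles 443.5 and 828), or 493.5 bp without KMT2D, against 470 bp (424 and 631) in the list. A neighbouring peak within 5 kb was found for 116 of the 131 (88.5%, 82.0 to 92.9%), beside 68.0% of all peaks. The median gap between neighbours within a gene was 1603 bp over 125 gaps, and in the list, where gaps between genes count as well, 4757 bp over 17777. The intervals count each peak as separate and cover counting error alone, whereas peaks of 1 gene may come from 1 transcript. The list at large was not matched for gene or exon length, and no test was made.

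**Figure D3:**
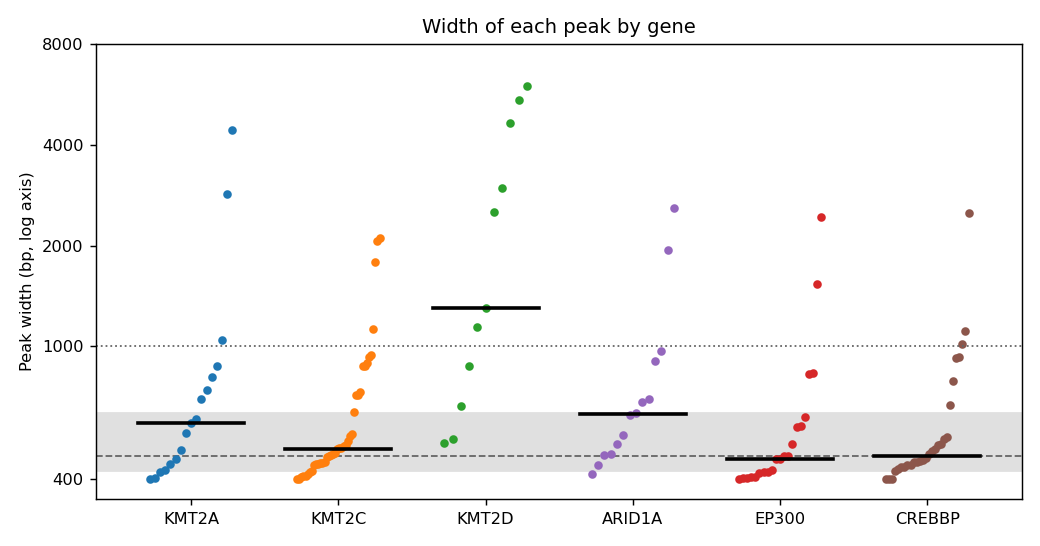
Each point is the width of 1 peak (bp, log axis) in the 6 genes with peaks, sorted from left to right within a gene, with a black bar at the gene's median. The grey band and dashed line give the quartiles (424 and 631 bp) and median (470 bp) of all 17802 peaks, and the dotted line is at 1000 bp. The KMT2D median (1304 bp) is above the band and those of the other 5 genes (462 to 628 bp) are within it.

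All 6 genes with peaks had a peak across the start of the span. It measured 608 bp in KMT2A (118307156 to 118307764), 1128 bp in KMT2C (152132539 to 152133667) and 5994 bp in KMT2D. In ARID1A it measured 1943 bp (27022223 to 27024166), in EP300 1531 bp (41487695 to 41489226) and in CREBBP 1110 bp (3929656 to 3930766). Every one of these peaks began before the start. The reach was smallest in KMT2A, 49 bp, then 196 bp in KMT2D, 299 bp in ARID1A, 577 bp in KMT2C, 645 bp in CREBBP and 919 bp in EP300. Into the gene they reached between 465 bp in CREBBP and 5798 bp in KMT2D. In KMT2A, KMT2C, ARID1A and EP300 the longest stretch of the gene without a peak, of 34.5, 76.6, 31.8 and 23.9 kb, directly followed the start peak. In KMT2D the next peak came after 151 bp. How often other genes with peaks have one across the start was not computed, so this is not shown to be particular to these genes.

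**Figure D4:**
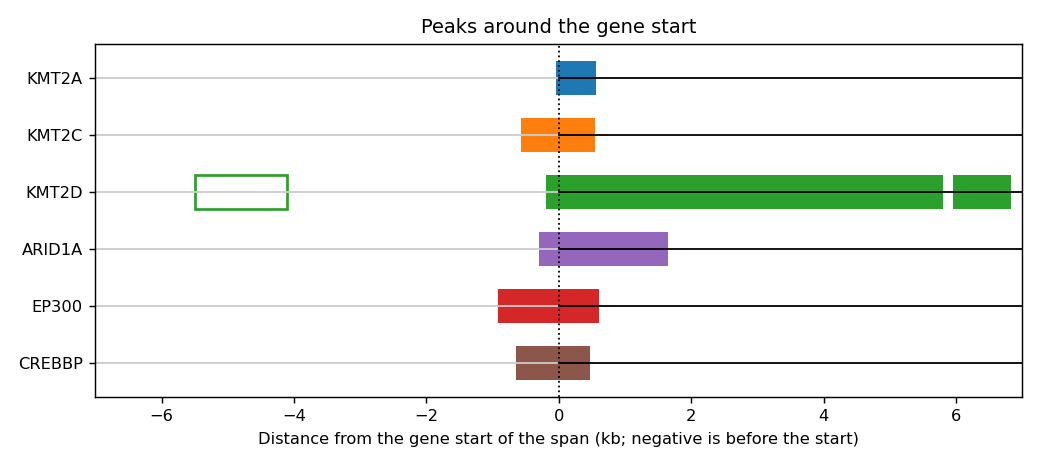
Filled boxes are peaks within 7 kb of the gene start (dotted line at 0), with distance along the gene in kb and negative values before the start. All 6 start peaks cross the line. The open box is the 1403 bp peak before KMT2D, which lies outside the span used.

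The bases before the start may be read against the length that RefSeq gives these genes on GRCh38.p14. There EP300 is 18 bases longer than the span used here, ARID1A 10 and KMT2A 6, and KMT2C is 2 bases shorter. CREBBP is longer by 594 bases, and its peak passed the start by 645 bp. The lengths do not say at which end a record is longer, and a link between length and reach was not tested. KMT2D is longer by 5467 bases. A further peak of 1403 bp, from 49453206 to 49454609, lay 4099 to 5502 bp before the start of the KMT2D span and was the only peak within 20 kb outside any of the 8 spans. If the longer KMT2D record adds its bases at the start, that start would fall inside this peak. Adding 6 kb before the start would give KMT2D 12 peaks and 28010 bases under peaks. The next gene beyond that side of KMT2D in RefSeq is RHEBL1. The list has no strand, so a start peak cannot be assigned to the gene's own strand.

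The 250 bases printed for EP300 hold the 54-base MIR1281 hairpin, matched by sequence. It begins 79 bases before the start, and 25 bases lie between its end and the start. The peak's reach of 919 bp before the start of the span is longer than the 250 bases printed. The comparison holds if both starts are the same to within the 18 bases by which the records differ. The width and position of the peak do not separate the microRNA from EP300 RNA that begins upstream. Over the 300-base windows that RefSeq gives from 250 bases before to 50 after the start, the 8 genes had a median GC content of 72.8% and 35 CpG dinucleotides. The median over 15860 protein-coding genes was 62.7% and 22. KMT2C had the highest GC content (88.7%) and KMT2D the lowest (65.0%), and KDM6A (66.3%) and STAG2 (67.3%) were close to KMT2D. The KMT2D window is taken at the RefSeq start of a gene 5467 bases longer than the span used. It may therefore not lie at the start that the KMT2D start peak covers. CCAAT, searched on both strands of these windows, was found in 2 of the 8 genes (25%), 2 times in KDM6A and 1 time in STAG2. It occurs in 36.4% of the windows of protein-coding genes. The search was chosen after the genes without peaks were known, and a link with the lack of peaks was not tested. The match is a description of letters in DNA, whereas the capture was of RNA.

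Toward the other end of the gene, peaks were more frequent than toward the start. Of the 131 peaks, 103 (78.6%, Wilson interval 70.8 to 84.8%) had their midpoint in the latter 50% of the span. KMT2C gave 34 of these and CREBBP 24, and the interval counts peaks of 1 gene as separate. The same share was not computed for other genes, so it is not shown to be particular to these. The share was 85.7% in CREBBP, 85.0% in KMT2C, 76.5% in KMT2A, 76.2% in EP300, 71.4% in ARID1A and 54.5% in KMT2D. Weighted by width, it was 69.6% over all 6 genes and 40.0% in KMT2D, whose widest peak lay at its start. On the span used, the direction in KMT2D thus depends on the weighting. If the 5467 further bases of the longer KMT2D record lie before the start, its shares could change, and they were not computed for that record. Distances from the last peak to the gene's end were 64 bp in KMT2D, 197 bp in CREBBP, 523 bp in ARID1A, 831 bp in EP300, 2315 bp in KMT2A and 9628 bp in KMT2C. No hg19 exon annotation was used here, so these peaks are not assigned to exons, introns or untranslated regions.

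**Figure D5:**
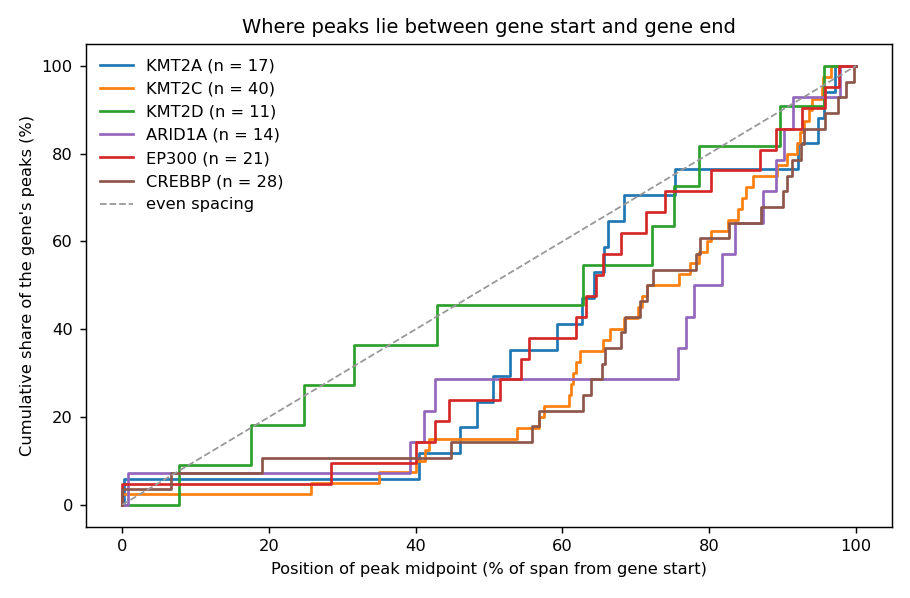
Lines give the cumulative share of each gene's peaks (%) against the position of the peak midpoint as a percent of the span from the gene start, for the 6 genes with peaks. The dashed line is even spacing. The lines of KMT2A, KMT2C, ARID1A, EP300 and CREBBP run below it over most of the gene, and that of KMT2D, with a median position of 62.8%, stays nearest to it.

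KDM6A and STAG2 had no peak in spans of 239.4 kb (X chromosome, 44732423 to 44971845, plus strand) and 142.0 kb (X chromosome, 123094475 to 123236505, plus strand). Extending the spans by 1 kb on each side added none. The nearest peak before KDM6A, from 41377115 to 41377613, was 3.35 Mb away, and the nearest after it, from 46464810 to 46465449, was 1.49 Mb away. KDM6A thus lay in a stretch of 5.09 Mb without a peak. Around STAG2 the stretch was 5.86 Mb, from the peak at 122812670 to 122813301, 281.2 kb before its start, to the peak at 128674256 to 128674656. Of the 505 gaps between neighbouring peaks on the X chromosome, 7 were at least as long as that around KDM6A and 4 at least as long as that around STAG2, both gaps counted. Over the list these were 86 and 62 of 17777 gaps. These counts take each gap once whatever its length, so they do not give the share of a chromosome that lies in such gaps.

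Pieces of the X chromosome as long as these genes were mostly without a peak when no regard is paid to genes. The X chromosome had 506 peaks. When it was cut from its first to its last peak into pieces as long as KDM6A, 83.3% of 639 pieces had no peak, and of 1077 pieces as long as STAG2 89.0% had none. Over the autosomes and the X chromosome together the shares were 74.6% and 81.4%. At the other end, pieces with at least as many peaks as the gene were rare over the autosomes and the X chromosome. For KMT2C they were 29 of 9685 (0.299%), for KMT2D 227 of 80290 (0.283%), for EP300 76 of 33360 (0.228%) and for CREBBP 57 of 18813 (0.303%). For KMT2A they were 146 of 32301 (0.452%) and for ARID1A 204 of 33899 (0.602%). On the gene's own chromosome the share was 6 of 578 (1.04%) for CREBBP, 21 of 2886 (0.728%) for ARID1A, 18 of 3661 (0.492%) for KMT2D and 4 of 1482 (0.270%) for KMT2A. For EP300 it was 1 of 400 (0.25%) and for KMT2C 1 of 526 (0.190%). The genes' own stretches were not left out of the pieces, so a piece counted may hold the gene itself. Most pieces hold little or no exon sequence, so these shares set the genes beside the genome and not beside other genes. The level of KDM6A and STAG2 RNA in the input was not analysed here, and whether it went with the lack of peaks was not tested.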

How the data were processed

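The deposited file is 1 list of YBX1 peaks that gives only hg19 positions (chromosome, start, end), per the file headers. Trimmomatic, MACS2 and build hg19 are named in the submitters' processing notes, without versions. The aligner and the peak threshold were not given in the sources used here, nor was the use of the input in peak calling. Widths are the end minus the start, since it is not stated whether positions count from 0 or 1.

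Peaks sharing 1 base or more with the hg19 spans were counted, and clipped to the span for bases under peaks. Strand came from the RefSeq tables (GRCh38.p14), in which all 8 symbols matched; none of their coordinates was converted. Where RefSeq sequence is set beside a peak, the distance is counted from the gene start, which is taken to be the same in both builds apart from the stated differences in length. All 8 genes are named, with the first, last and widest peak and the longest stretch without one; other peaks, the 5 kb runs, the whole-list pieces, the CCAAT search, the 6 kb extension of KMT2D and the values without KMT2D were chosen after the values were seen. Members and tests were chosen with earlier results of these data known. No test was possible with 1 sample a group. Bases per coding base, peak strength and the other subunits of these complexes were not computed, because no protein table, strength column or hg19 annotation was at hand. Overlap counts were checked on simulated data. Python 3.11.15, numpy 2.4.6, pandas 2.3.3, scipy 1.17.1 and matplotlib 3.10.9 were used.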

Additional observations from a re-analysis of the deposited data

How the results depend on the processing

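With peaks under 500 bp left out, 68 of the 131 peaks remained, and density was 5.98 peaks per 100 kb of span, against 11.5 with all peaks. By gene, this left 10 in KMT2A, 18 in KMT2C, 8 in EP300 and 11 in CREBBP, while KMT2D kept 11. It also ended the near equality of KMT2C and KMT2D in bases under peaks (16457 against 26411), and trimming each peak by 100 bp at both ends gave 18380 against 24311. The share of peaks in the latter 50% of the span fell from 78.6% to 69.6% when peaks were weighted by width. Requiring at least 50% of a peak inside the span left 128 peaks, and merging peaks closer than 200 bp left 122. The median width stayed between 498 and 512.5 bp and the median gap between 1603 and 1886 bp. Alternatives on coding length and peak strength were not run, because neither was at hand. No paired analysis was possible because the groups hold 1 sample apiece. The list has no read counts, so how deep the sequencing had to be to show a peak cannot be given.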
